A study of Mus musculus with 27 samples.

Results

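The 8 genes described here are Hmgcs1, Idi1, Fdft1, Sqle, Lss, Cyp51, Dhcr7 and Insig1, a set of cholesterol synthesis genes that are known targets of the transcription factor SREBP2. They were taken by name from an RNA-Seq table of 24065 genes, in which each of the 8 had 1 row. The table holds 6 single whole embryos of the C57BL/6J strain at embryonic day 8.5 (E8.5), 3 WT and 3 Dnmt3b-/- littermates. Dnmt3b encodes a DNA methyltransferase that places new methylation after implantation. The Dnmt3b-/- embryos came from matings of heterozygotes that carried a Dnmt3b-2lox allele recombined by an ACTB-Cre deleter line, so the catalytically inactive allele was inherited and present in every tissue. The sex of these embryos, and how much yolk sac stayed on each, was not given in the sources used here. The comparison asked whether the transcripts of the pathway differed between genotypes in E8.5 embryos, and it was read against the spread of yolk sac lipid carriers between embryos, since the yolk sac endoderm of this stage makes lipoproteins.

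Cholesterol is built from acetyl-CoA through mevalonate, isoprenoids, squalene and lanosterol. When sterols in the endoplasmic reticulum are low, SCAP escorts SREBP2 to the Golgi, where proteases release its active part, and it then activates the genes of the pathway together. INSIG1 holds SCAP back when sterols are plentiful and is itself a target, which closes a feedback loop. The midgestation embryo both makes sterols and receives lipid from the yolk sac, and loss of late enzymes of the pathway such as DHCR7 disturbs development.

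Promoter sequences are shown for Hmgcs1, which had the highest level of the 8 genes, and for Cyp51, whose level differed between genotypes. Each run holds the 250 bases before the RefSeq start (GRCm38.p6, the assembly called mm10), read along the gene's strand, at chr13:119690101-119690350 (plus strand) for Hmgcs1 and chr5:4104698-4104947 (minus strand) for Cyp51. Capitals mark matches, on either strand, to the sterol regulatory element core TCACNCCAC, the NF-Y box CCAAT, the Sp1 box GGGCGG and the E-box CACGTG. These motifs do not overlap each other in either run.
Hmgcs1: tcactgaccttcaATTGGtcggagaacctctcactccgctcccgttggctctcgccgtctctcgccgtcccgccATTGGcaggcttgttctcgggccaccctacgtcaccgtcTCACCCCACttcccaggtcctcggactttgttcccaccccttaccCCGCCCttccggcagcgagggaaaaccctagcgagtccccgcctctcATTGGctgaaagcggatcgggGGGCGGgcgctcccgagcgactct
Cyp51: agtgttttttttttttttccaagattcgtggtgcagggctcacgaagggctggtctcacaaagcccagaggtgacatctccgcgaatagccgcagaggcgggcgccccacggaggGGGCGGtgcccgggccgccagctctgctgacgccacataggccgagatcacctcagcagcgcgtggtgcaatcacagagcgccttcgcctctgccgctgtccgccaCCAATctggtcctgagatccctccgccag
In the Hmgcs1 run the sterol regulatory element core lay from -137 to -129 relative to the start. The promoter table holds 8 windows for 6 of the genes, 3 of them for Dhcr7, each with 250 bases before and 50 after a start. The core was found in 1 of these 8 windows, against 1.24% of all 32851 windows. The NF-Y box was in 6 of 8 and the Sp1 box in 7 of 8, against 37.4% and 35.7% of all windows, and the E-box in 2 of 8 (1 each of Dhcr7 and Insig1), against 7.15%. Fdft1 and Sqle were not searched. No match says only that these letters were not in the window.

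The 6 libraries held 41489332 to 58470286 counts in genes. Dnmt3b itself, which checks the labels, had 9197, 12195 and 7120 counts in WT embryos 1 to 3 and 4068, 3904 and 4196 in Dnmt3b-/- embryos 1 to 3, with every Dnmt3b-/- embryo below every WT embryo (log2 fold change -1.04, SE 0.266, adjusted p = 0.0169). Ribosomal Rn45s took 2.03% of the counts of WT embryo 2, 0.984% and 1.02% in WT embryos 3 and 1, and 0.213% to 0.347% in the Dnmt3b-/- embryos. So every WT library was above every Dnmt3b-/- library in this share, and WT embryo 2 was the highest. How this difference between libraries bears on the calls was not tested. Among embryo proper markers, 5 of 14 passed the test (3 higher, 2 lower, 35.7%, as for all tested genes), or 4, all higher, with the trend of counts with exonic GC content and length removed. With that trend removed 22.9% of all tested genes were called in either direction. Of 10 trophoblast and decidua markers 4 (Prl3d1, Prl2c2, Tpbpa and Prl8a2) had no counts. By edgeR 0 of the 5 tested passed (1 at an unadjusted p below 0.05), where 35.7% of all tested genes did.

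Of the 8 genes, Cyp51 rose in Dnmt3b-/- embryos, 1.62-fold, and the other 7 did not pass the test. A gene was called when the adjusted p of edgeR's quasi-likelihood test was below 0.05, and log2 fold changes are Dnmt3b-/- over WT. So 1 of 8 was called higher and 0 lower, where 17.6% of the 15114 genes tested were called higher and 18.1% lower (35.7% in either direction). At an unadjusted p below 0.05 the counts were 3 higher and 0 lower, where 22.0% of all tested genes were higher and 23.8% lower. All 8 genes passed the filter on low counts. Their median log2 fold change was 0.30, against -0.03 over all genes tested. Cyp51 and Idi1 had all 3 Dnmt3b-/- embryos above all 3 WT embryos, 2 of 8 genes where 25.3% of all tested genes did so. Past a 2-fold change 0 of 8 were called by edgeR, where 2.12% of all tested genes were called higher and 3.78% lower (5.90% in either direction). With 3 embryos of each genotype an exact permutation test of a single gene cannot give a two-sided p below 0.1, so calls rest on the fit across all genes, and their p-values measure the spread between these single embryos. In whole embryos, fewer cells of a type and less RNA per cell cannot be told apart.

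**Figure D1:**
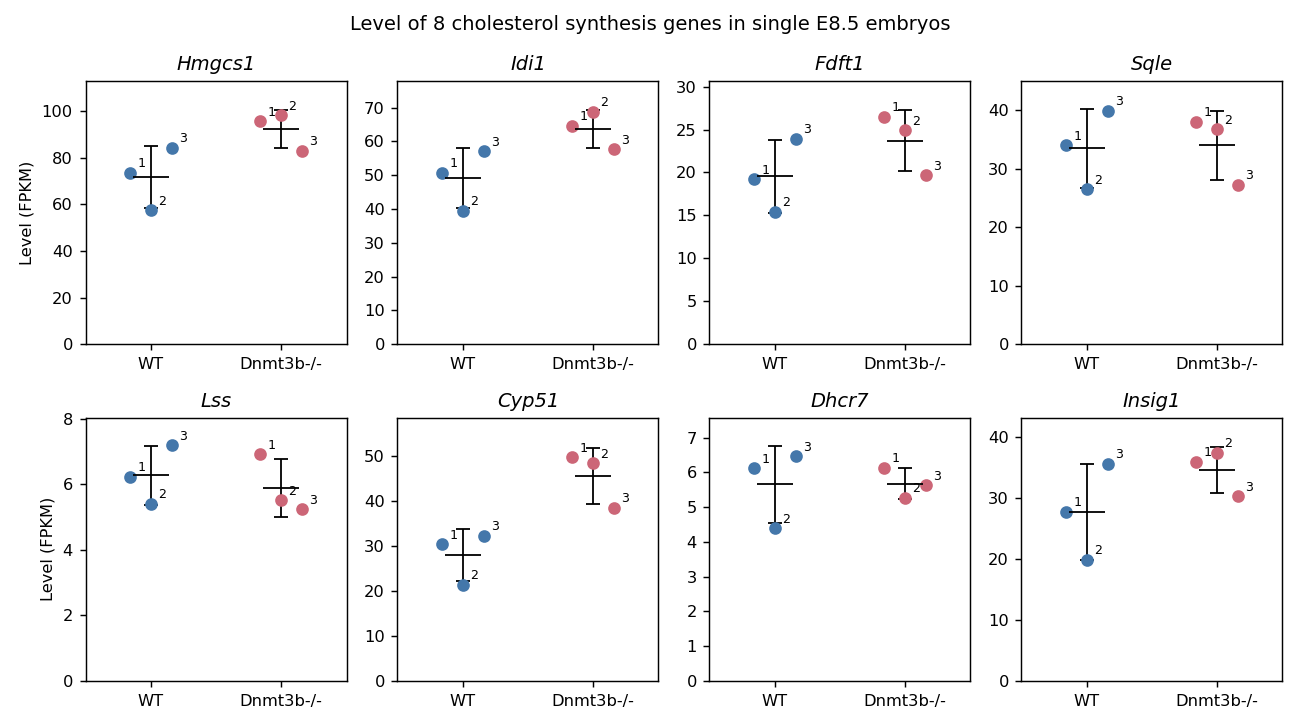
Level of each of the 8 cholesterol synthesis genes in FPKM (counts scaled to library size and exon length, y axis from 0) in single E8.5 WT and Dnmt3b-/- embryos. Points are embryos, numbered as in the labels, and bars give the mean and SD (n = 3 per genotype). The Cyp51 and Idi1 points do not overlap between genotypes, and WT embryo 2 is the lowest WT point in 8 of 8 panels.

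Hmgcs1 and Idi1 act in the early, mevalonate part of the pathway. Hmgcs1 encodes the cytosolic HMG-CoA synthase, which makes HMG-CoA, the precursor of mevalonate, and lies on chromosome 13 from 119690351 to 119708260 (plus strand). Its level was 73.4, 57.5 and 84.2 FPKM in WT embryos 1 to 3 and 95.7, 98.2 and 83.0 FPKM in Dnmt3b-/- embryos 1 to 3. The genotypes overlapped by a narrow margin, between WT embryo 3 and Dnmt3b-/- embryo 3. The log2 fold change of Hmgcs1 was 0.36 (SE 0.136, 95% interval 0.05 to 0.68, adjusted p = 0.0682), short of the threshold. Idi1, the isopentenyl-diphosphate isomerase that supplies the activated isoprenoid unit, lies on the same chromosome from 8885606 to 8892396 (plus strand). Idi1 measured 50.7, 39.5 and 57.1 FPKM in WT and 64.6, 68.7 and 57.7 FPKM in Dnmt3b-/- embryos, so every Dnmt3b-/- embryo was above every WT embryo, the closest pair by less than 1 FPKM. Its log2 fold change was 0.38 (SE 0.133, 95% interval 0.07 to 0.68, adjusted p = 0.0582), which also missed the threshold. Both passed it when WT embryo 3, the highest WT embryo for both, was left out (adjusted p = 0.0233 for Hmgcs1 and 0.0243 for Idi1).

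Fdft1, Sqle and Lss carry the pathway from farnesyl diphosphate through squalene to lanosterol, and none of the 3 passed the test. Fdft1 encodes squalene synthase, the first enzyme committed to sterols (chromosome 14, 63145150 to 63181687, minus strand). The 6 embryos gave 19.2, 15.4 and 24.0 FPKM of Fdft1 in WT and 26.5, 25.0 and 19.7 FPKM in Dnmt3b-/-, with WT embryo 3 inside the Dnmt3b-/- range. The difference was 0.28 on the log2 scale (SE 0.165, 95% interval -0.10 to 0.66, adjusted p = 0.224). Of its exonic bases 20.9% overlap Ctsb on the opposite strand, and whether counting used strand was not given. Sqle encodes squalene epoxidase, a rate-limiting oxygenase (chromosome 15, 59315092 to 59331193, plus strand). In WT embryos Sqle stood at 34.0, 26.5 and 39.9 FPKM and in Dnmt3b-/- embryos at 38.0, 36.8 and 27.3 FPKM, ranges that nearly coincide (log2 fold change 0.02, SE 0.167, 95% interval -0.36 to 0.41, adjusted p = 0.930). Lss, lanosterol synthase, closes the ring system (chromosome 10, 76531565 to 76557139, plus strand). Lss read 6.23, 5.41 and 7.19 FPKM in WT and 6.91, 5.51 and 5.25 FPKM in Dnmt3b-/- embryos, again overlapping (log2 fold change -0.09, SE 0.143, 95% interval -0.42 to 0.23, adjusted p = 0.650). For Lss, 6.02% of the exonic bases overlap 4930483K19Rik on the opposite strand.

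Cyp51 and Dhcr7 act after lanosterol and gave different results. Cyp51 encodes the lanosterol 14-alpha-demethylase (chromosome 5, 4080674 to 4104697, minus strand). Its level was 30.4, 21.4 and 32.2 FPKM in WT embryos 1 to 3 and 49.7, 48.3 and 38.4 FPKM in Dnmt3b-/- embryos. The lowest Dnmt3b-/- embryo was above the highest WT embryo. The log2 fold change of 0.70 (SE 0.161, 95% interval 0.33 to 1.07, adjusted p = 0.0109) was a rise from 28.0 ± 5.81 to 45.5 ± 6.13 FPKM (SD, n = 3 each). Leaving out each embryo in turn kept the Cyp51 call in 6 of 6 fits, with adjusted p from 0.00887 to 0.0497. Removing the trend of counts with exonic GC content and length lowered the value to 0.50 and ended the call (adjusted p = 0.0567). Dhcr7, 7-dehydrocholesterol reductase, makes cholesterol in the last step (chromosome 7, 143823167 to 143848410, plus strand). Dhcr7 measured 6.11, 4.39 and 6.46 FPKM in WT and 6.14, 5.27 and 5.63 FPKM in Dnmt3b-/- embryos. Every Dnmt3b-/- value lay inside the WT range, with a log2 fold change of 0.0046 (SE 0.159, 95% interval -0.36 to 0.37, adjusted p = 0.985).

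Insig1, the only one of the 8 that encodes a regulator and not an enzyme, lies on chromosome 5 from 28071412 to 28078662 (plus strand). The embryos gave 27.7, 19.8 and 35.5 FPKM in WT and 35.9, 37.3 and 30.3 FPKM in Dnmt3b-/-. WT embryo 3 reached the Dnmt3b-/- embryos and WT embryo 2 was far below them. The log2 fold change was 0.32 (SE 0.188, 95% interval -0.11 to 0.75, adjusted p = 0.225), and among the fits that left out 1 embryo it was called without WT embryo 3 (adjusted p = 0.0368). Without that embryo 4 of the 8 genes were called higher (Hmgcs1, Idi1, Cyp51 and Insig1). Of all 15075 genes tested in that fit 2103 were called higher, and 28.1% were called in either direction.

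In WT embryos the order of the mean levels per length was Hmgcs1 at 71.7 ± 13.4, Idi1 at 49.1 ± 8.94, Sqle at 33.5 ± 6.73, Cyp51 at 28.0 ± 5.81, Insig1 at 27.7 ± 7.84, Fdft1 at 19.5 ± 4.28, Lss at 6.28 ± 0.893 and Dhcr7 at 5.66 ± 1.11 FPKM (SD, n = 3). Sqle, Cyp51 and Insig1 lay within 1 SD of each other, as did Lss and Dhcr7. In Dnmt3b-/- embryos Cyp51, at 45.5 ± 6.13, stood above Insig1 at 34.5 ± 3.75 and Sqle at 34.0 ± 5.87 FPKM. Hmgcs1 at 92.3 ± 8.13 and Idi1 at 63.7 ± 5.59 remained the highest of the 8 levels and Dhcr7 at 5.68 ± 0.437 the lowest, close to Lss at 5.89 ± 0.896 FPKM.

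The 8 genes varied together between embryos of 1 genotype. WT embryo 2 had the lowest WT value for 8 of 8 genes, a place it took for 41.4% of all tested genes, and Dnmt3b-/- embryo 3 had the lowest Dnmt3b-/- value for 7 of 8 (all but Dhcr7), against 39.8% of all tested genes. These places were not particular to the 8 genes. The 2 counts were 7 and 13 for 14 other sterol synthesis enzymes, 8 and 9 for 9 tested erythroid markers, and 1 and 13 for 13 yolk sac lipid carriers. The SD of log2 levels within genotypes had a median of 0.24 over the 8 genes (0.20 to 0.31), against 0.15 over all genes tested. Without WT embryo 2, Cyp51 stayed called (log2 fold change 0.54, adjusted p = 0.00887) and the other 7 uncalled, with a median of 0.13 over the 8 genes and 34.6% of all tested genes called.

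The yolk sac lipid carriers spread far more. Summed over 13 genes, they stood at 516, 1874 and 280 FPKM in WT embryos 1 to 3 and at 540, 344 and 182 FPKM in Dnmt3b-/- embryos 1 to 3, so WT embryo 2 held 6.70 times the sum of WT embryo 3. The 8 cholesterol synthesis genes summed to 248, 190 and 287 FPKM in WT and 323, 325 and 267 FPKM in Dnmt3b-/- embryos, a span of 1.71-fold over the 6 embryos against 10.3-fold for the carriers. WT embryo 2, with the highest carrier sum, had the lowest sum of the 8 genes, but Dnmt3b-/- embryo 3 was lowest of its genotype in both. Among the 4 most abundant carriers, Apoe (lipoprotein particles) went from 61.4 FPKM in Dnmt3b-/- embryo 3 to 431 FPKM in WT embryo 2, Apoa1 (high-density lipoprotein) from 46.9 to 393 FPKM, Apoc2 (the lipoprotein lipase cofactor) from 19.4 to 364 FPKM, and Ttr (thyroid hormone and retinol carrier) from 18.1 to 212 FPKM, in the same pair of embryos. Of the Apoc2 exons 60.0% are shared with Gm44805 on the same strand, so its level is uncertain. The median SD of log2 levels within genotypes was 1.08 for the carriers. By edgeR 0 of 13 carriers were called, where 35.7% of all tested genes were (3 carriers at an unadjusted p below 0.05, 1 called by DESeq2). Their log2 fold changes had a median of -1.08. The genotypes overlapped for 13 of 13 carriers, and for 7285 of all 15114 tested genes. Without WT embryo 3, 5 of the 13 carriers were called lower, where 14.2% of all tested genes were called lower.

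Other markers moved across the same embryos. The 14 yolk sac endoderm markers in the table (Spink1 was not listed) summed to 234, 519 and 128 FPKM in WT and 226, 159 and 115 FPKM in Dnmt3b-/- embryos, and 2 of 14 passed the test (14.3%, against 35.7% of all tested genes), both lower: Amn (log2 fold change -2.59, adjusted p = 0.0429) and Lrp2 (-1.59, adjusted p = 0.0134). With the GC and length trend removed Lrp2 was still lower (adjusted p = 0.0380), Amn was not called (adjusted p = 0.115) and Foxa1 was higher (adjusted p = 0.0423). The 10 primitive erythroid markers, led by the embryonic globins Hbb-bh1, Hba-x and Hbb-y, summed to 1527, 400 and 2260 FPKM in WT and 1448, 1099 and 506 FPKM in Dnmt3b-/- embryos. In WT embryos the erythroid sum and the sum of the 8 genes had the same order, embryo 3 above 1 above 2, and in both genotypes the embryo lowest in 1 was lowest in the other. Hba-a1, which has a near-identical copy, had no counts. Of 9 tested erythroid markers edgeR called 0 (1 at an unadjusted p below 0.05), where 35.7% of all tested genes were called. The covariates used next were sums of CPM (counts scaled to library size), not divided by exon length, so they differ from the FPKM sums above. With the log2 carrier CPM sum as a covariate, Cyp51 was again the single call among the 8 genes (log2 fold change 0.59, adjusted p = 0.0334). The median of the 8 genes fell to 0.15, and 26.3% of all tested genes were called. With the log2 erythroid CPM sum as the covariate, a fit added after the data were seen, 5 of 8 were called higher. These were Cyp51 (log2 fold change 0.77), Hmgcs1 (0.43), Idi1 (0.44), Fdft1 (0.35) and Insig1 (0.42), with adjusted p from 0.000314 to 0.00622. Of all 15114 tested genes 3002 were then called higher, and 40.0% were called in either direction. The number of calls among the 8 genes thus moved from 1 to 5 with the choice of covariate. The erythroid sum had the same order as the 8 genes in WT embryos, as given above, so its fit is no separate support for these calls.

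**Figure D2:**
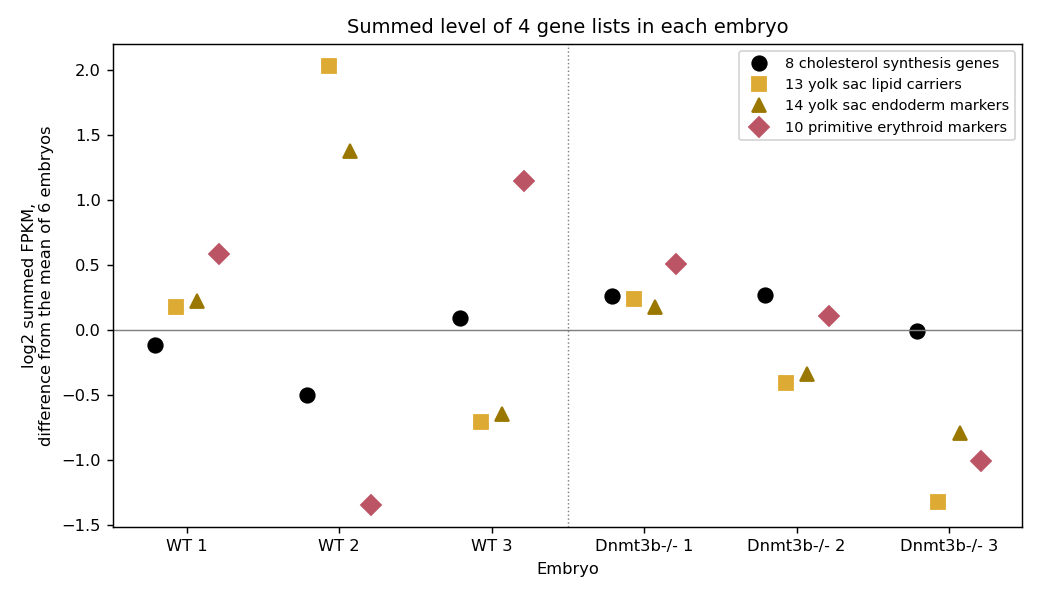
Summed level of 4 gene lists in each embryo, as log2 summed FPKM minus its mean over the 6 embryos (y axis), with WT embryos left and Dnmt3b-/- embryos right of the dotted line and 1 point per list and embryo. The 8 cholesterol synthesis genes lie between -0.50 and 0.27, and the 13 lipid carriers between -1.33 and 2.04.

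Across the pathway, enzymes moved in both directions. Of 21 enzymes of sterol synthesis, 7 of the genes above included, 4 rose, 4 fell and 13 were not called (38.1% called, against 35.7% of all tested genes), and their log2 fold changes had a median of 0.0046. Of the 14 that are not among the 8 genes, 3 rose and 4 fell. The risers were Nsdhl, which removes the C4 carboxyl group after lanosterol (0.67, SE 0.104, adjusted p = 0.00213), Sc5d, the lathosterol desaturase (0.63, SE 0.10, adjusted p = 0.00241), and Acat2, the cytosolic thiolase (0.26, SE 0.0761, adjusted p = 0.0304). Nsdhl measured 12.7, 11.2 and 14.0 FPKM in WT and 20.4, 20.3 and 19.7 FPKM in Dnmt3b-/- embryos, tight within each genotype and far from overlap. The genes that fell were Tm7sf2, a sterol C14 reductase (-0.88, SE 0.202, adjusted p = 0.0105), Mvd, mevalonate diphosphate decarboxylase (-0.77, SE 0.247, adjusted p = 0.0407), Mvk, mevalonate kinase (-0.68, SE 0.221, adjusted p = 0.0434), and Ebp, the sterol isomerase (-0.51, SE 0.117, adjusted p = 0.0105). Mvk stood at 11.3, 12.9 and 16.0 FPKM in WT and 10.7, 8.57 and 5.88 FPKM in Dnmt3b-/- embryos. Nsdhl and Ebp lie on the X chromosome, the sex of the embryos was not given, and its part in these calls was not tested. So in the fit of all 6 embryos calls in opposite directions stood at early steps (Acat2 against Mvk and Mvd) and at post-lanosterol steps. At the early steps Acat2, Mvk and Mvd were each called in 2 of 6 fits with 1 embryo left out. The fits that kept Acat2 were not those that kept Mvk and Mvd. After lanosterol, Nsdhl and Ebp were each called in 6 of 6.

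Among the enzymes not called, Msmo1, the C4 methyl oxidase that acts with Nsdhl, had a log2 fold change of 0.43 (adjusted p = 0.176), and Fdps, which makes farnesyl diphosphate, -0.0055 (adjusted p = 0.980). Several calls rested on single embryos. Acat2 was not called without Dnmt3b-/- embryo 1 or 2 or WT embryo 1 or 2 (adjusted p = 0.0506 to 0.104). Mvk and Mvd were not called without Dnmt3b-/- embryo 2 or 3 or WT embryo 1 or 3 (adjusted p = 0.0514 to 0.128), which lowered the count of enzymes that fell to 2. Without WT embryo 3, Hmgcs1, Idi1 and Msmo1 (adjusted p = 0.0374) joined the risers and made 7. Of the Mvd exons 34.4% overlap Gm51557 on the opposite strand.

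**Figure D3:**
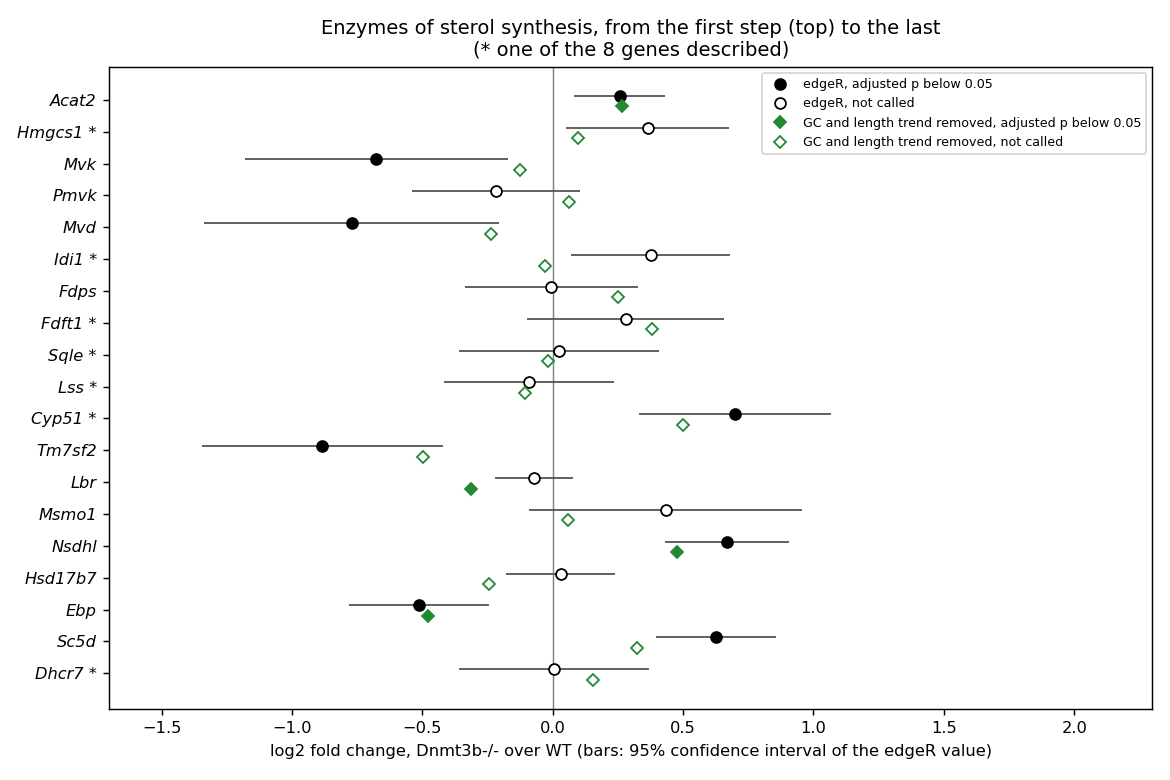
Log2 fold change, Dnmt3b-/- over WT, of 19 of the 21 sterol synthesis enzymes ordered along the pathway from top to bottom, with asterisks on those among the 8 genes. Circles are edgeR values with 95% confidence intervals, diamonds the values after the GC and length trend was removed, and filled symbols passed an adjusted p of 0.05. Filled circles stand on both sides of 0, from -0.88 for Tm7sf2 to 0.70 for Cyp51.

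The transcripts of the SREBP factors themselves fell. Srebf2, which encodes SREBP2, had 14.8, 12.6 and 14.6 FPKM in WT and 8.62, 7.65 and 6.55 FPKM in Dnmt3b-/- embryos, with every Dnmt3b-/- embryo below every WT embryo (log2 fold change -0.88, SE 0.119, adjusted p = 0.00135). Srebf1, whose product acts more on fatty acid genes, had 9.63, 9.93 and 10.8 FPKM in WT and 5.96, 4.57 and 3.99 FPKM in Dnmt3b-/- embryos (-1.06, SE 0.150, adjusted p = 0.00154). Both calls stood with the GC and length trend removed, at a smaller size: -0.36 for Srebf2 (adjusted p = 0.0166) and -0.52 for Srebf1 (adjusted p = 0.0109). Over the alternative fits Srebf1 was called in 18 of 18 and Srebf2 in 17 of 18. Of 11 regulators, Insig1 included, 6 were called (54.5%, against 35.7% of all tested genes), 2 higher and 4 lower, and the median log2 fold change was -0.25. Rnf145 (-0.25, adjusted p = 0.0228), which encodes a ubiquitin ligase of the endoplasmic reticulum, was also among those that fell. The 2 that rose were Rnf139 (0.41, adjusted p = 0.00590), a further ligase, and Mbtps2 (0.37, adjusted p = 0.0279), the site-2 protease. Of the Rnf139 exons 26.2% are shared with Tatdn1 on the opposite strand, and Mbtps2 lies on the X chromosome. Mbtps2 stayed called on leaving out Dnmt3b-/- embryo 1 and was not called without any of the other 5 embryos (adjusted p = 0.0540 to 0.0762), and Rnf145 was not called without Dnmt3b-/- embryo 2 or WT embryo 1 or 3 (adjusted p = 0.0806 to 0.0926). Scap had a log2 fold change of -0.33 (adjusted p = 0.0587), and it was called without Dnmt3b-/- embryo 1 (adjusted p = 0.0264). With the GC and length trend removed 4 regulators were called, all lower, with Rnf139 at 0.0085 (adjusted p = 0.951) and Mbtps2 at -0.11 (adjusted p = 0.460). In that fit 22.9% of all tested genes were called in either direction.

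In sterol uptake and transport, 1 of 10 genes rose and 3 fell (40.0% called, against 35.7%). Npc2, a lysosomal sterol carrier, fell by 0.47 (SE 0.0944, adjusted p = 0.00636). Scarb1, a lipoprotein receptor, fell by 0.87 (adjusted p = 0.0274), with no call without Dnmt3b-/- embryo 2 or 3 or WT embryo 2 (adjusted p = 0.0543 to 0.0847). Lipa, the lysosomal acid lipase, rose by 0.33 (adjusted p = 0.0230), with no call without Dnmt3b-/- embryo 1 or 2 or WT embryo 1 or 3 (adjusted p = 0.0516 to 0.0902). With the GC and length trend removed Lipa was at 0.13 (adjusted p = 0.317) and Scarb1 at -0.59 (adjusted p = 0.0919), neither called, and the list had 1 gene higher (Lrp8, 0.41, adjusted p = 0.0276) and 2 lower. That fit called 22.9% of all tested genes in either direction.

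Of 15 genes of LXR signalling, efflux and esterification, 13 were tested. By edgeR 0 were called higher (0 at an unadjusted p below 0.05) and 3 lower (23.1% called, against 35.7% of all tested genes). These were Nr1h2, a sterol-sensing nuclear receptor (-0.90, adjusted p = 0.00367), Abca1, which exports cholesterol (-0.49, adjusted p = 0.0207), and Ch25h, cholesterol 25-hydroxylase (adjusted p = 0.0158). Ch25h was at low level, 0.175 to 0.301 FPKM in WT and 0.0305 to 0.0532 FPKM in Dnmt3b-/- embryos. Abca1 was not called without Dnmt3b-/- embryo 2 or 3 or WT embryo 1 (adjusted p = 0.0731 to 0.0830), and Ch25h was not tested without WT embryo 1 or 3, where its mean count fell under the filter. With the GC and length trend removed Abca1 and Ch25h were called and Nr1h2 was not (-0.29, adjusted p = 0.0960). Cyp7a1, of hepatic bile acid synthesis, had no counts. Soat2, a cholesterol esterifying enzyme, stood at 17.2 FPKM in WT embryo 2 and at 1.58 to 4.10 FPKM in the other 5, so it too was highest in the embryo with the highest carrier sum.

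Fatty acid synthesis, the SREBP1 branch, gave 2 genes higher and 3 lower of 13 (38.5%, against 35.7% of all tested genes). Fads2, the delta-6 desaturase, rose by 0.77 (SE 0.112, adjusted p = 0.00179) and Scd1, the delta-9 desaturase, by 0.33 (SE 0.0713, adjusted p = 0.00860). Fasn, the fatty acid synthase, fell by 0.97 (SE 0.149, adjusted p = 0.00209), from 73.2, 62.6 and 54.9 FPKM in WT to 37.8, 33.6 and 26.2 FPKM in Dnmt3b-/- embryos. The acetyl-CoA carboxylase Acaca fell by 0.45 (SE 0.0793, adjusted p = 0.00371), and Acacb fell by 0.94 (adjusted p = 0.0179) with no call without WT embryo 1 (adjusted p = 0.0790) or 3 (adjusted p = 0.0680). With the GC and length trend removed Fasn was at -0.33 (adjusted p = 0.0499), and at -0.28 with no call when WT embryo 2 was also left out (adjusted p = 0.103). Scd1 (0.22, adjusted p = 0.0540) and Acacb (-0.40, adjusted p = 0.271) then lost their calls, and Fads1 (0.43, adjusted p = 0.0186) gained one. Of 11 genes of other isoprenoid branches, Ggps1, the geranylgeranyl diphosphate synthase (0.44, adjusted p = 0.0107), and Nus1, of dolichol synthesis (0.23, adjusted p = 0.0327), rose, and Rabggta, a Rab prenylation subunit, fell (-0.97, adjusted p = 0.00865), 27.3% called against 35.7% of all tested genes. With the GC and length trend removed 2 were called, both lower (Rabggta and Pggt1b), with Ggps1 at -0.0046 (adjusted p = 0.981) and Nus1 at -0.11 (adjusted p = 0.250). The share of all tested genes called in that fit was 22.9%. Ggps1 was not called without Dnmt3b-/- embryo 2 (adjusted p = 0.0504), and Nus1 was not called without Dnmt3b-/- embryo 2 or 3 or WT embryo 1 or 3 (adjusted p = 0.0711 to 0.127).

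Fold changes followed the GC content of the exons. Across all 15057 tested genes with a GC value Spearman's rho with the log2 fold change was -0.54, across the 21 enzymes -0.76 and across the 8 genes -0.76, given as descriptions since all points share the same 6 libraries. Idi1 (41.5% GC), Hmgcs1 (44.0%) and Cyp51 (45.2%) had the lowest GC and the highest fold changes of the 8 genes, whereas Fdft1 (51.8%) and Dhcr7 (52.6%) had the highest GC. Mvk (59.4%), Mvd (59.1%) and Tm7sf2 (56.2%), which fell, were GC-rich, and Nsdhl (45.9%) and Sc5d (43.6%), which rose, were not. Ebp (50.9%), which fell, and Acat2 (50.3%), which rose, were close in GC content. With the trend removed 0 of the 8 genes were called by edgeR, while 22.9% of all tested genes were called in either direction. The values of Hmgcs1 (0.10, adjusted p = 0.650) and Idi1 (-0.03, adjusted p = 0.904) came to near 0, those of Fdft1 (0.38, adjusted p = 0.104) and Dhcr7 (0.15, adjusted p = 0.511) grew, and the median of the 8 was 0.13. Among the 21 enzymes 3 were then higher (Acat2 and Nsdhl among them) and 2 lower (Ebp and Lbr), and Cyp51, Sc5d, Mvk, Mvd and Tm7sf2 were not called (adjusted p = 0.0519 to 0.630), with Nsdhl at 0.48 (adjusted p = 0.0168) and Ebp at -0.48 (adjusted p = 0.0141). The calls of Nsdhl, Ebp, Srebf1, Npc2, Acaca and Fads2 were made in every alternative fit that was run, with no fold threshold. Of these genes only Srebf1 (-1.06) was past a 2-fold change in the fit of all 6 embryos with genotype alone.

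**Figure D4:**
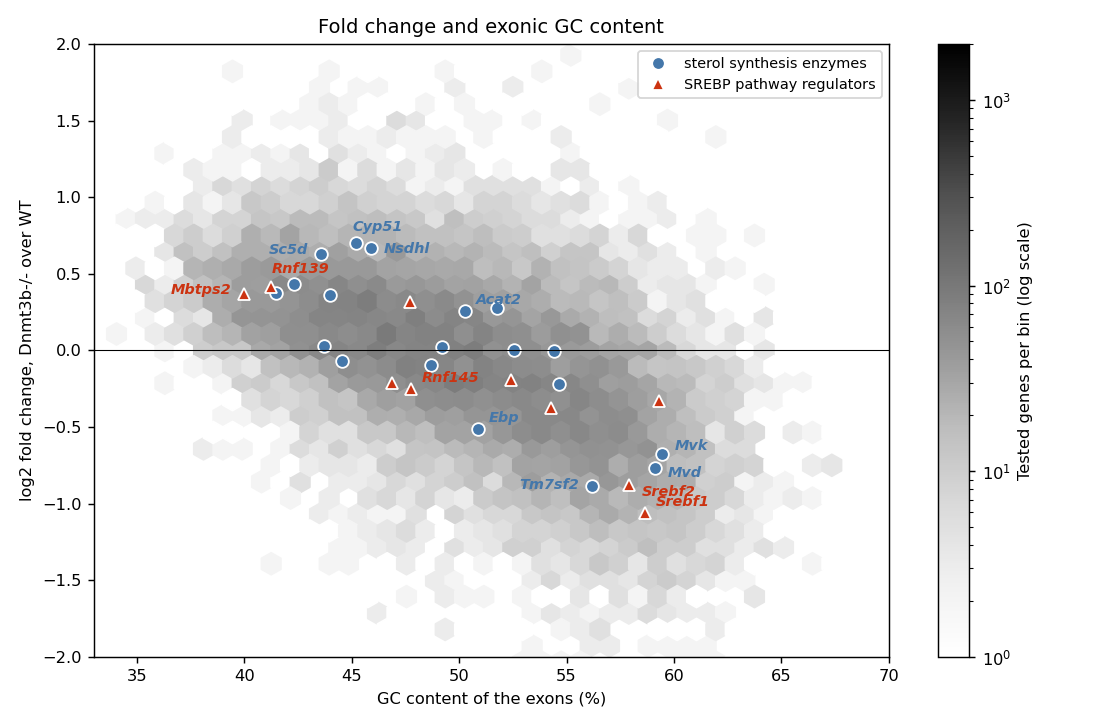
Log2 fold change, Dnmt3b-/- over WT (y axis), against the GC content of the exons in percent (x axis). Grey bins count all tested genes on a log scale within the axis limits, blue circles are 19 sterol synthesis enzymes and red triangles SREBP regulators, with names on those called. Cyp51 lies at 45.2% GC and 0.70, and Mvk at 59.4% GC and -0.68.

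The genes outside these lists whose profile over the 6 embryos was most like the mean profile of the 8, out of 11745 genes compared, were Casd1, Reep1, Rnf125, Senp7 and Cep55. Likeness was the root mean square difference of centred log2 CPM (counts scaled to library size), from 0.0523 for Casd1 to 0.0636 for Cep55, against a median of 0.305 over all genes compared, and 47 genes were below 0.1. The mean profile of the 8 ran -0.07, -0.45 and 0.13 in WT embryos 1 to 3 and 0.25, 0.18 and -0.05 in Dnmt3b-/- embryos 1 to 3. Of the 8 genes themselves, Fdft1 (0.0519) and Hmgcs1 (0.0684) lay closest to it and Cyp51 (0.231) farthest. None of the 5 most alike genes passed the test between genotypes, where 35.7% of all tested genes did. They were picked for a profile over these same 6 embryos, so this outcome is no separate result.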

How the data were processed

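Single whole embryos at E8.5, 3 WT and 3 Dnmt3b-/-, were profiled by paired-end RNA-Seq of ribosome-depleted total RNA (TruSeq Stranded). The authors aligned reads to mm10 with TopHat2 2.0.12 and counted them over RefSeq exons with HTSeq 0.6.0, per the submitters' processing notes and the study's methods. The RefSeq release and the strand setting were not given in the sources used here. The deposited table holds raw read counts per gene, which were used. It also holds signal values, read counts that the authors divided by DESeq2 1.4.5 size factors, given per embryo. The authors further deposited their own comparison, with log2 fold changes and p-values. Neither kind of column was used for any value here. The RRBS samples of the series were not analysed here.

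Genes that averaged 10 counts or more over the 6 embryos were tested with edgeR 4.0.16 (R 4.3.3) by the quasi-likelihood test with TMM scaling and genotype as the only term, Benjamini-Hochberg adjusted over all genes tested, with the threshold at 0.05. Standard errors were taken as the absolute log2 fold change over the square root of F. FPKM are TMM-scaled CPM per kilobase of merged RefSeq exons of GRCm38.p6, matched by symbol for 22604 genes and by older symbol for 1277 (99.2% in all). GC content and length come from the same exons, and their trend was removed per library with natural splines of 5 degrees of freedom. Alternatives were no filter, a mean of 50 counts, DESeq2 size factors, total counts, DESeq2 1.42.0, limma 3.58.1 on log2(CPM + 1), a replicate block, a 2-fold threshold, the GC and length trend removed, the summed lipid carriers as a covariate, and each embryo left out. The erythroid covariate, and the GC trend removed without WT embryo 2, were added after the data were seen. The lipid carrier and erythroid covariates were log2 sums of TMM-scaled CPM, not of FPKM, over the genes of each list. The code was tested on simulated data. The 8 genes and all gene lists were chosen with earlier results of these data known. Named genes are the 8, any gene of the lists of the pathway and of lipid metabolism, the 4 most abundant or undetected lipid carriers and cell type markers, and the 5 genes most alike in profile. Amn, Lrp2, Foxa1, Rn45s and the overlapping neighbours were named outside that rule, after their values were seen. Promoter windows are from RefSeq (GRCm38.p6), which matched 6 of the 8 genes. Some genes of the lists enter the counts and are not reported here by name.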

Additional observations from a re-analysis of the deposited data

How the results depend on the processing

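No called gene among the 8 reversed. Against 1 of 8 called higher, the count was 2 with DESeq2 size factors and with limma, 3 with DESeq2, 5 with the erythroid covariate and 0 with the 2-fold threshold, the GC and length trend removed, the same with the replicate block, and the same without WT embryo 2; leaving out 1 embryo gave 1 to 4. Over all 15114 tested genes, 2654 higher and 2741 lower became 2771 and 2626 with DESeq2 size factors and 2703 and 2840 with limma. DESeq2 gave 3070 and 3013, and the erythroid covariate 3002 and 3042. Counts over all genes were 1861 and 1586 with the trend removed, and 1406 and 1054 with the trend removed and the replicate block. They were 1703 and 1451 with the trend removed without WT embryo 2, and leaving out 1 embryo gave 1795 to 2726 and 1791 to 2660. Enzymes called higher numbered 1, 8 and 2 with block and trend, erythroid covariate, and trend without WT embryo 2 (3 to 7 with 1 embryo out). Enzymes called lower numbered 2 with the block, with the trend removed, with both, with the carrier covariate, and with the trend removed without WT embryo 2 (2 to 4 with 1 embryo out). Carriers called lower numbered 2 with no filter, with the block and with block and trend, and 1 at a mean of 50 counts and with DESeq2 (0 to 5 with 1 embryo out). Signs turned as follows, with the trend removed, with block and trend, and with the trend removed without WT embryo 2, in that order where 3 values stand. Idi1 was -0.030, -0.015 and -0.18, Mbtps2 -0.11, -0.11 and -0.13, Nus1 -0.11, -0.11 and -0.077 and Scap 0.25, 0.24 and 0.27. Hmgcs1 was -0.046 with the trend removed without WT embryo 2, and Msmo1 -0.18. Ggps1 was -0.0046 with the trend removed. Sqle was -0.019, -0.0044 and -0.18, and also -0.051 with total counts and -0.069 with the carrier covariate. Dhcr7 was -0.0069 with no filter, -0.073 with total counts, -0.14 with the carrier covariate and -0.0035 with the trend removed without WT embryo 2. With 1 embryo left out Sqle ranged from -0.12 to 0.17, Dhcr7 from -0.15 to 0.11 and Lss from -0.21 to 0.016. The causes were not tested. Scaling by total counts moved the median of all genes to -0.11 and Acat2, Lipa, Mbtps2 and Nus1 lost their calls. The replicate numbers were not taken as pairs. Deviations of same-numbered embryos correlated at -0.11, -0.22 and -0.0086, and those of embryos with different numbers at -0.12 to 0.22. Such correlations cannot show whether embryos shared a litter. A replicate block gave 2172 genes higher and 2239 lower, with Cyp51 called. Depth of at least 41489332 counts left the 8 genes limited by the spread between embryos, and with 3 per genotype the intervals above allow sizeable differences for the 7 genes not called.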
